A study of Oryza sativa with 36 samples.

Results

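The genes described here encode the calcium sensor kinases of rice and the sensor proteins that activate them, in young panicles 2 cm long under drought. They were chosen by name from the RefSeq gene table, which lists 63 rice genes called CPK (or CDPK), CIPK or CBL followed by a number. Of these, 51 genes were matched to at least 1 of the 57194 probe sets tested on the array, which cover 17905 genes by a probe set of a single gene, with 20 of 24 CPK genes, 24 of 30 CIPK genes and 7 of 9 CBL genes. The other 12 genes were not analysed here, and they are CBL1, CBL7, CIPK3, CIPK9, CIPK13, CIPK15, CIPK27, CIPK33, CPK11, CPK14, CPK25 and CPK28. The 51 genes have 65 probe sets. The brightest probe set of a gene, by its mean over all arrays with drought arrays included, stands for it below. The gene called CBL5 here also carries the synonym CBL2, which another gene carries alone. Other members share names as well, such as CIPK31 (also CIPK3), CPK7 (also CPK11) and CPK19 (also CPK2). The genes called CIPK3, CPK11 and CPK2 here are separate genes.

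Calcium-dependent protein kinases (CPK) join a kinase domain and a calcium-binding domain in a single protein, so that calcium acts on the enzyme directly. Calcineurin B-like proteins (CBL) bind calcium but have no enzyme activity of their own. They bind and activate CBL-interacting protein kinases (CIPK), and in plants the best known pair is SOS3 and SOS2, which is CBL4 with CIPK24 in rice and drives sodium export under salt. Members of these families are known for their part in the responses to drought, salt, cold and abscisic acid.

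Panicles were taken from 6 rice varieties that were grown in plots walled with cement and were either well watered or left to dry from the later tillering stage, in the same pool as the controls. The study classed MILT1444, EMATAYIN, DOURADOAGULHA and HUHAN3 as drought tolerant and KHAUMEO and NIPPONBARE as drought sensitive, with DOURADOAGULHA and KHAUMEO as indica and the other varieties as japonica. Each variety and treatment has 3 arrays from independent experiments, which makes 12 groups and 36 arrays, and the number of plants behind each RNA sample is not stated in the labels or the methods. The array was designed on the genome annotation of NIPPONBARE, so that its probes may match the sequence of the other varieties less well, which was not tested. Values are linear intensities of a probe set, and a positive change is a higher log2 intensity under drought than with water, estimated by limma over all 36 arrays and given with its standard error (SE). In whole panicles, fewer cells of a type and less RNA per cell cannot be told apart.

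The arrays were alike in overall brightness, with array medians between 55.8 and 68.8, and no 2 arrays held identical values. Of 13 floral MADS-box genes that mark the young panicle, 13 were measured, with summed intensities of 41549 to 53123 on well watered arrays and 45401 to 53690 on drought arrays, and 4 of them were higher under drought at the adjusted p. Of 6 measured meiosis genes, 4 were higher on average and none lower, among them the recombinase gene DMC1 by 0.34 ± 0.07, and the summed intensity was 2507 to 6238 in well watered and 2783 to 7166 in drought-stressed panicles. Of 3 measured green tissue genes 1 was higher, the Rubisco activase gene RCA, with sums of 2795 to 12737 and 3255 to 12282, and of 5 measured tapetum and pollen wall genes 1 was lower, with sums of 769 to 2479 and 826 to 2055. These counts stand beside 20.6% of the whole array that was higher in the average and 21.5% that was lower. None of these markers was at the floor of the scale, and their part in the changes below was not tested.

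The drought changes of the calcium sensor genes were small, and none of the 51 genes reached a 2-fold change with a p, adjusted by Benjamini and Hochberg's method, of 0.05 or less in any variety, where 1.77% of all probe sets did so. No member passed those limits with an unadjusted p under 0.05 either. The changes in single varieties ran from -0.85 for CBL6 in KHAUMEO to 0.98 for CIPK16 in EMATAYIN. At the adjusted p alone, without the fold limit, 9 of the 51 genes changed in at least 1 variety, against 16.9% of all probe sets and 22.6% of probe sets brighter than the median. The members were bright on this array, with 39 of 51 above the median probe set. By variety, 2 members were higher and 3 lower in HUHAN3, where 2.91% and 1.25% of all probe sets passed in these directions, and 2 were higher and 3 lower in KHAUMEO (1.05% and 0.593%). In NIPPONBARE 2 were higher and none lower (5.32% and 5.72%), in MILT1444 2 and none (2.65% and 0.782%), in DOURADOAGULHA 1 and none (1.81% and 1.22%), and in EMATAYIN no member passed (0.0839% and 0.0262%).

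The average of the 6 drought changes, which all 36 arrays enter, resolved smaller differences. At the adjusted p alone 14 of the 51 genes were higher and 13 were lower under drought, and 24 did not pass. By the same rule 20.6% of the whole array was higher and 21.5% lower, and among the probe sets brighter than the median 29.4% were higher and 21% lower. At 2-fold no member was called in the average, where 0.341% of all probe sets were called higher and 0.042% lower. An unadjusted p under 0.05 was found for 29 members, and the share of all probe sets under that rule was not counted. The median of the absolute average change was 0.17 over the members and 0.14 over all probe sets. The 95% intervals of the members' average changes lie between -0.81 and 0.91, inside a 2-fold change in either direction.

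The average change was then counted by family. Of 24 CIPK genes 10 were higher and 6 lower in the average, of 20 CPK genes 2 were higher and 5 lower, and of 7 CBL genes 2 were higher and 2 lower. The median average change was 0.08 for CIPK, -0.09 for CPK and -0.03 for CBL genes, beside -0.01 for all probe sets. The median of the CIPK genes stayed above 0 under each scaling tried, whereas those of the CPK and CBL genes were 0.04 and 0.10 when each array was scaled to the actin gene ACT1, which moved the median of all probe sets to 0.11. ACT1 itself was lower under drought by this fit, with a change of -0.13 ± 0.03 (adjusted p from limma 0.0029) and lower values in 6 of 6 varieties. With that scaling 5 CPK genes were higher and 2 lower, and the shares of all probe sets called with it were not counted. Differences between families were not tested.

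**Figure D1:**
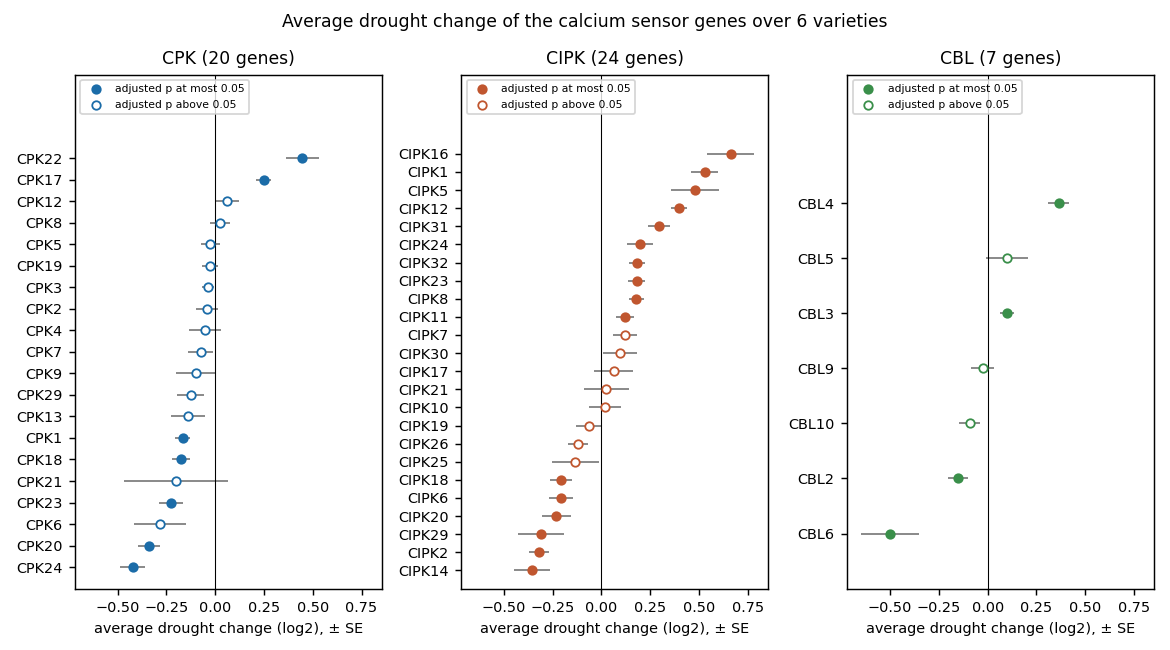
Average drought change (drought-stressed minus well watered, log2) of the 20 CPK, 24 CIPK and 7 CBL genes, each point a gene's mean over 6 varieties and each bar its SE from limma. The CIPK panel holds the highest value, CIPK16 at 0.66, and the CBL panel the lowest, CBL6 at -0.50.

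Among the CBL sensors, CBL4 and CBL3 rose and CBL6 and CBL2 fell. CBL4, the counterpart of SOS3, was dim, with intensities of 33.3 to 63.5 and a median of 47.9 on the 18 well watered arrays and of 39.2 to 76.9 and a median of 62.1 on the 18 drought arrays. Its average change was 0.36 ± 0.05 (SE, adjusted p from limma 8.4e-06), and it was higher in 6 of 6 varieties. In 5 of these every drought array lay above every well watered array of the same variety, a separation that 2.06% of all probe sets showed in at least 5 varieties.

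The rise of CBL4 passed the adjusted p in HUHAN3 and NIPPONBARE. In HUHAN3 the well watered arrays read 54.3, 41.0 and 47.6 and the drought arrays 76.9, 63.4 and 67.5, a change of 0.54 ± 0.13 (adjusted p from limma 0.021). In NIPPONBARE the well watered arrays read 47.8, 46.7 and 48.0 and the drought arrays 61.7, 71.0 and 72.2, a change of 0.52 ± 0.13 (adjusted p from limma 0.014). The treatments did not overlap in either variety, but the call was lost without any of 3 single arrays of HUHAN3 (adjusted p up to 0.18) and any of 2 arrays of NIPPONBARE (adjusted p up to 0.062). In DOURADOAGULHA CBL4 was dimmest, at 33.3, 33.5 and 34.9 when well watered and 44.7, 39.2 and 49.3 under drought.

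CBL6 was among the brighter probe sets and had the largest fall of any member, by 0.50 ± 0.15 on the log2 scale (adjusted p from limma 0.0085), with lower values in 6 of 6 varieties. Its arrays scattered widely, from 1148 to 4147 with a median of 2890.0 when well watered and from 1048 to 3785 with a median of 1977 under drought, and the well watered arrays of MILT1444 alone read 1148, 2514 and 3992. The treatments were apart in EMATAYIN, KHAUMEO and NIPPONBARE. In KHAUMEO the well watered arrays read 1399, 2314 and 2829 and the drought arrays 1090, 1178 and 1212, a change of -0.85 ± 0.36 that did not pass (adjusted p from limma 0.23). CBL2, which in rice lies at the vacuolar membrane of aleurone cells, fell by 0.15 ± 0.05 (adjusted p from limma 0.023), and CBL3 rose by 0.10 ± 0.04 (0.023). The call of CBL3 was lost without any of the 3 replicate numbers (adjusted p from limma 0.063 to 0.17) and after quantile normalization (0.074), and that of CBL2 with the arrays scaled to ACT1 (0.64). CBL5, CBL9 and CBL10 did not pass, with average changes of 0.10, -0.03 and -0.09.

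The CIPK kinases held the largest rises. CIPK16 rose most, by 0.66 ± 0.12 (adjusted p from limma 9.8e-05), from 50.9 to 162 with a median of 83.6 on well watered arrays to 90.3 to 188 with a median of 138 on drought arrays. It was higher in 6 of 6 varieties, and the treatments did not overlap in MILT1444, EMATAYIN and DOURADOAGULHA. In EMATAYIN, which had the largest change at 0.98 ± 0.29, the well watered arrays read 62.2, 57.3 and 84.5 and the drought arrays 149, 116 and 133. The smallest change was 0.24 in NIPPONBARE, where the well watered arrays read 130, 162 and 104 and the drought arrays 153, 170.2 and 139. In no variety did CIPK16 pass the adjusted p (0.13 to 0.62 in limma), and its probe set is of a type that can also bind transcripts of other genes.

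CIPK1 rose by 0.53 ± 0.07 (adjusted p from limma 1.9e-06) from a median of 1634 on well watered arrays to 2334 on drought arrays. The change was positive in 6 of 6 varieties and passed the adjusted p in HUHAN3, at 0.71 ± 0.17 (0.020), and in KHAUMEO, at 0.66 ± 0.17 (0.043). In KHAUMEO the well watered arrays read 1932, 1604 and 1698 and the drought arrays 2859, 3145 and 2321, with no overlap. The change in EMATAYIN was larger still, at 0.76 ± 0.17, and missed the limit (adjusted p from limma 0.073). In that variety the well watered arrays read 1203, 1357 and 1676 and the drought arrays 2810, 2343 and 2005. The call in HUHAN3 was lost without any of 4 single arrays (adjusted p up to 0.17) and that in KHAUMEO without any of 12 (up to 0.20).

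With the probe set used here, CIPK12 had the smallest adjusted p of all members in the average, with a rise of 0.40 ± 0.04 (adjusted p from limma 1.1e-07). With that probe set it was also the member that passed in most varieties. Its overexpression is known to raise the drought tolerance of rice seedlings. In MILT1444 the well watered arrays read 202, 173 and 188 and the drought arrays 259.8, 272 and 295, a change of 0.55 ± 0.10 (adjusted p 0.0029). In KHAUMEO they read 247, 220.1 and 195 against 294, 339 and 316, a change of 0.52 ± 0.10 (adjusted p 0.0096). In NIPPONBARE they read 255, 229 and 243 against 381, 331 and 311, a change of 0.49 ± 0.10 (adjusted p 0.0052). The treatments did not overlap in these 3 varieties, nor in DOURADOAGULHA, where the change was 0.45 ± 0.10 (adjusted p from limma 0.019), nor in HUHAN3, where it was 0.23 ± 0.10 and did not pass.

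In EMATAYIN CIPK12 was already bright without drought, at 299.99, 251 and 273, and the drought arrays read 302, 306 and 299.9, a change of 0.14 ± 0.10. The calls in MILT1444 and NIPPONBARE held without any single array (adjusted p from limma at most 0.042), whereas those in DOURADOAGULHA and KHAUMEO were each lost without any of 3 arrays (up to 0.11 and 0.070). None of these calls passed with each variety fitted alone (adjusted p from limma 0.066 to 0.15) or without replicate 2 of every group (0.31 to 0.61). CIPK12 has another probe set, which averaged a change of -0.06 ± 0.07 (adjusted p from limma 0.54). With both probe sets averaged, CIPK12 passed in none of these varieties (adjusted p from limma 0.11 to 0.50). The rise therefore belongs to the probe set used, and no change was resolved with the other. The set used was the brighter over all arrays, drought arrays included (mean log2 8.017 against 7.84). On the well watered arrays alone its mean was lower than that of the other, within ranges of 173.09 to 299.99 and 171.02 to 356.11. It was thus the brighter only with the drought arrays included. The choice of probe set for CIPK12 was thus not independent of its rise under drought.

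**Figure D2:**
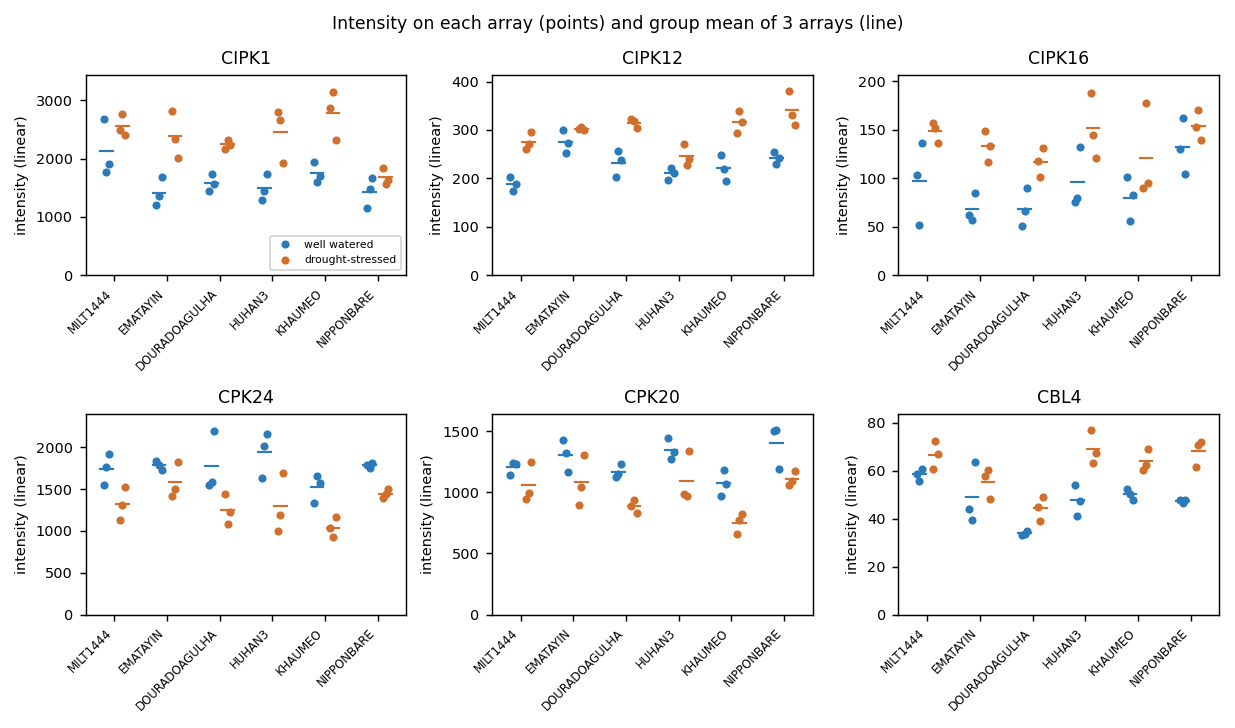
Linear intensity on each of the 36 arrays (points; blue well watered, orange drought-stressed) for CIPK1, CIPK12, CIPK16, CPK24, CPK20 and CBL4 in 6 varieties, with the mean of 3 arrays as a line. For CIPK12 and CBL4 the drought arrays lie above the well watered arrays in 5 of 6 varieties.

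CIPK5 rose by 0.48 ± 0.12 (adjusted p from limma 0.0029), with positive changes in 6 of 6 varieties and no overlap of the treatments in 4. Its probe set lay below the median probe set (mean log2 5.72 against 5.94). In EMATAYIN it read 31.7, 40.7 and 31.3 when well watered and 26.2, 35.2 and 88.1 under drought, with a single bright array. The remaining higher CIPK genes moved less. CIPK31, known in rice for a part in germination and seedling growth under stress, rose by 0.30 ± 0.06, although its dimmer probe set gave -0.05 ± 0.05. CIPK24, the counterpart of SOS2, rose by 0.20 ± 0.07 (adjusted p from limma 0.019), and CIPK32, CIPK23 and CIPK8 by 0.18 each. CIPK23, which in rice is known from drought and from seed set after pollination, rose with both of its probe sets, by 0.18 ± 0.04 and 0.42 ± 0.09. CIPK11 rose by 0.12 ± 0.05 (adjusted p from limma 0.033). After quantile normalization of the arrays CIPK11 and CIPK24 did not pass.

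Of the CIPK genes that fell, CIPK14 changed by -0.36 ± 0.09 (adjusted p from limma 0.0032), CIPK2 by -0.32 ± 0.05 (3.0e-05) and CIPK29 by -0.31 ± 0.12 (0.037). CIPK2 and CIPK29 are direct neighbours in the RefSeq gene order. All 3 probe sets of CIPK2 fell, by 0.32, 0.34 and 0.49, and each passed the adjusted p in the average. The call of CIPK29 was lost without any of 15 of the 36 arrays, with adjusted p-values from 0.012 to 0.070 over the 36 refits. CIPK20, CIPK6 and CIPK18 fell by 0.23, 0.21 and 0.21. With the arrays scaled to ACT1, CIPK2 and CIPK14 were lower and the other 4 did not pass.

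CIPK2 fell in KHAUMEO and HUHAN3 at the adjusted p. In KHAUMEO the well watered arrays read 1894, 2137 and 2044 and the drought arrays 1170, 1301 and 1266, a change of -0.70 ± 0.13 (adjusted p from limma 0.0055), lost without the second well watered array (0.055). In HUHAN3 the arrays read 2320, 2189 and 2245 against 1463, 1600 and 1833, a change of -0.47 ± 0.13 (adjusted p from limma 0.036), lost without any of 5 arrays (up to 0.24). In EMATAYIN it read 1776, 1782 and 1870 against 1558, 1709 and 2169, a change of -0.01 ± 0.13. The change of CIPK2 thus ran from near 0 to -0.70 over the varieties. CIPK30 and CIPK12 are also direct neighbours, and their average changes were 0.09 ± 0.09 and 0.40 ± 0.04.

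Among the CPK kinases 5 fell and 2 rose, or 2 fell and 5 rose with the arrays scaled to ACT1. CPK24, known in rice from cold tolerance, fell most, by 0.42 ± 0.07 (adjusted p from limma 1.6e-05), from 1330 to 2203 on well watered arrays to 925 to 1824 on drought arrays, with lower values in 6 of 6 varieties. In HUHAN3 it passed the adjusted p, with well watered arrays at 1638, 2019 and 2167 and drought arrays at 1002, 1195 and 1689, which overlapped, and a change of -0.61 ± 0.16 (adjusted p from limma 0.032). That call was lost without any of 4 arrays (up to 0.27). In KHAUMEO the treatments were apart, at 1329.6, 1656 and 1580.3 against 1035, 925 and 1162, with a change of -0.55 ± 0.16 (adjusted p from limma 0.075).

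CPK20 fell by 0.34 ± 0.06 (adjusted p from limma 3.0e-05) and was lower in 6 of 6 varieties, from a change of -0.20 in MILT1444 to -0.52 in KHAUMEO. In KHAUMEO the arrays read 974, 1185 and 1066 when well watered and 660.4, 769.96 and 827 under drought, with no overlap. That change passed (adjusted p from limma 0.048), but the call was lost without any of 23 of the 36 arrays (up to 0.24). CPK23 fell by 0.23 ± 0.06 (adjusted p from limma 0.0040), and CPK18 and CPK1 fell by 0.17 each, but these 3 did not pass with the arrays scaled to ACT1. The dimmer probe set of CPK18 gave 0.26 ± 0.11 and did not pass (adjusted p from limma 0.055), so the probe sets of this gene differed in sign.

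CPK22 and CPK17 were the CPK genes that rose. CPK22 was dim, with 18.7 to 36.2 on well watered and 23.9 to 50.8 on drought arrays, and rose by 0.45 ± 0.08 (adjusted p from limma 1.5e-04). CPK17, known in rice from cold, rose by 0.25 ± 0.04 (adjusted p from limma 2.2e-05), from 608 to 920.03 on well watered arrays to 770.3 to 986 on drought arrays. Its arrays were apart in 5 of 6 varieties, and in MILT1444, with 678, 608 and 692 against 986, 814 and 833, the change of 0.41 ± 0.10 passed (adjusted p from limma 0.017). The call was lost without any of 2 arrays of MILT1444 (up to 0.15). Several CPK genes known from stress studies in rice did not pass, among them CPK4 (-0.05 ± 0.08), CPK12 (0.06 ± 0.06), CPK13 (-0.14 ± 0.09) and CPK21 (-0.20 ± 0.27).

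**Figure D3:**
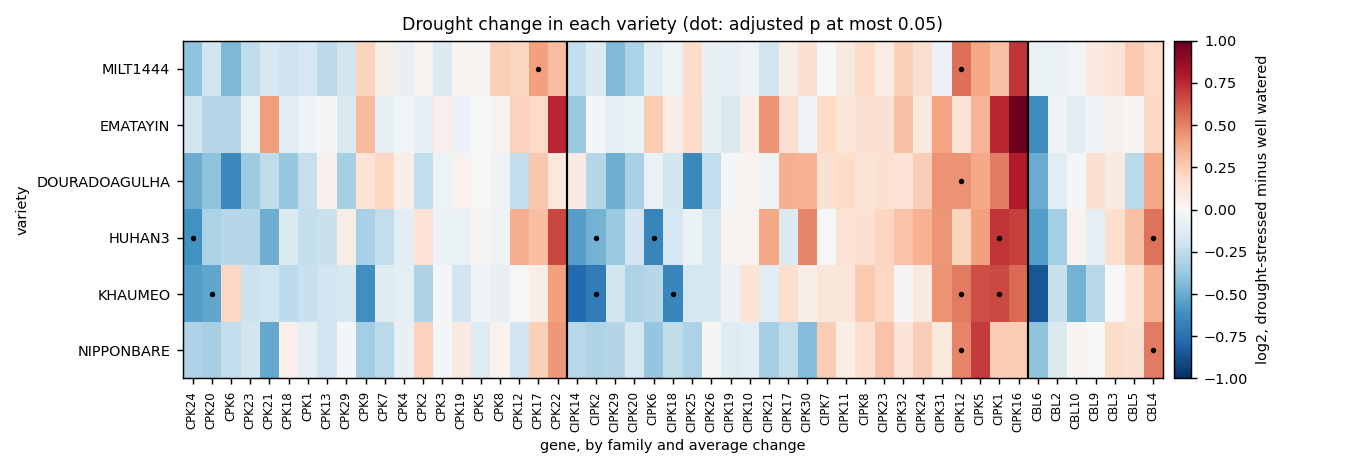
Drought change (drought-stressed minus well watered, log2) of the calcium sensor genes in each of the 6 varieties, as a colour scale from -1 (blue) to 1 (red) with varieties in rows and genes in columns by family, and a dot where the adjusted p is at most 0.05. CIPK16, CIPK1, CIPK12 and CPK22 were higher in 6 of 6 varieties, and CPK24, CPK20 and CBL6 were lower in 6 of 6.

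The direction of the change was also counted over the 6 varieties. Of 51 genes 12 were higher in 6 of 6 varieties and 9 were lower in 6 of 6, beside 15.6% and 17.4% of all probe sets. In at least 4 varieties every drought array lay above every well watered array for 5 genes, against 4.79% of all probe sets, and below for 3 genes, against 3.26%. Whether the members differ from the whole array in these shares was not tested. The number of arrays limits the precision in a single variety, and an exact permutation test of 3 against 3 arrays cannot go below p = 0.1.

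Whether the drought change of a gene differed between varieties was asked with limma's F for the interaction of variety and treatment. No member passed at the adjusted p, where 0.0542% of all probe sets did, and 6 members had an unadjusted p under 0.05, against 7.32% of all probe sets. The largest F was that of CIPK6, at 4.33 (adjusted p from limma 0.41), followed by CIPK2 at 3.64 (0.52) and CIPK18 at 3.20 (0.58). CIPK6 read 1691, 2062 and 2409 in well watered and 1022, 1299.7 and 1609 in drought-stressed HUHAN3, a change of -0.66 ± 0.15 (adjusted p from limma 0.014), which was lost without any of 2 arrays (up to 0.18). In EMATAYIN CIPK6 changed by 0.26 ± 0.15. CIPK18 changed by -0.65 ± 0.14 in KHAUMEO (adjusted p from limma 0.015), with 2963, 2719 and 2377 against 1668, 1709 and 1737 and no overlap, a call lost without any of 2 arrays (up to 0.091), and by 0.07 ± 0.14 in EMATAYIN.

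The comparison of tolerant with sensitive varieties, for which the study was designed, gave no call among the members. The mean change of the 4 tolerant varieties minus that of the 2 sensitive varieties did not pass for any of the 51 genes, where 0% of all probe sets passed, and the smallest adjusted p of a member was 0.71. At an unadjusted p under 0.05, 4 members had a higher change in the tolerant varieties, against 3.82% of all probe sets, and none a lower change, against 2.45%. The largest positive differences were those of CPK9, at 0.57 ± 0.21 (95% interval 0.13 to 1.005, adjusted p from limma 0.73), and CIPK30, at 0.42 ± 0.19 (0.03 to 0.81, 0.78). These SEs and intervals measure the spread between arrays, not between the varieties of a class. CPK9 changed by 0.22, 0.32, 0.136 and -0.325 in MILT1444, EMATAYIN, DOURADOAGULHA and HUHAN3, and by -0.615 and -0.342 in KHAUMEO and NIPPONBARE. In the same order CIPK30 changed by 0.15, -0.05, 0.35 and 0.49, and by 0.06 and -0.43. CPK9 is known in rice for a part in drought tolerance and spikelet fertility. The largest negative differences were those of CPK6, at -0.40 ± 0.28 (-0.98 to 0.19, adjusted p from limma 0.86), and CIPK5, at -0.29 ± 0.26 (-0.83 to 0.24, 0.89). CPK9, CIPK30, CPK6 and CIPK5 were dim, below the median probe set, with CPK6 between 14.4 and 44.5 and CIPK30 between 6.78 and 15.7 on well watered arrays.

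The level of these genes without drought differed between varieties for 23 of the 51 members, by limma's moderated F over the 6 well watered groups at the adjusted p, with 8 CPK, 11 CIPK and 4 CBL genes. Of all probe sets 34% passed the same test, and 49.3% of those brighter than the median. The highest variety mean over the lowest was 1.49-fold in the median over the members and ran from 1.07-fold for CIPK19 to 8.06-fold for CPK21. CPK21, known in rice from salt tolerance, was brightest in DOURADOAGULHA, with 97.8, 162 and 233, and read 18.2, 21.7 and 21.4 in KHAUMEO, whereas NIPPONBARE held a single bright array, at 38.9, 250.5 and 27.1.

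The sharpest difference was that of CBL9, a sensor whose brighter probe set split the subspecies (F = 119, adjusted p from limma 4.0e-16). The well watered arrays read 211, 207 and 176 in DOURADOAGULHA and 206, 226 and 213 in KHAUMEO. In the 4 japonica varieties the lowest well watered array read 687 and the highest 1079. No indica array reached a japonica array, a separation in this direction that 3.76% of all probe sets showed, and under drought the indica arrays lay between 152 and 259 again. The other probe set of CBL9 gave no such difference, with 299 to 485 over the well watered arrays (adjusted p from limma 0.68), and it fell by 0.19 ± 0.06 under drought (0.014). Both are of the type that can bind transcripts of other genes, and whether the probes of the brighter set match the indica sequence was not tested.

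CBL10, a sensor whose promoter variants in rice are known from flooding tolerance during germination, was higher in the indica varieties (F = 19.6, adjusted p from limma 3.4e-07). The well watered arrays read 790.3, 706 and 747 in DOURADOAGULHA and 733, 896 and 851 in KHAUMEO, above the 351 to 656 of the japonica arrays, and MILT1444 was lowest at 351, 368 and 439.8. Such a separation upwards in indica was found for 1.7% of all probe sets. Under drought KHAUMEO fell to 610.5, 543 and 628, a change of -0.48 ± 0.14 that did not pass (adjusted p from limma 0.064), and overlapped the EMATAYIN and NIPPONBARE arrays. CBL2 also differed between varieties (F = 14.5, adjusted p from limma 5.6e-06), with means of 1934 in HUHAN3 and 1098 in KHAUMEO, and so did CBL4 (F = 7.63, 8.1e-04), with means of 58.5 in MILT1444 and 33.9 in DOURADOAGULHA.

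Among the kinases CIPK5 varied most by F (13.7, adjusted p from limma 9.3e-06). Its well watered arrays read 117, 104 and 77.6 in KHAUMEO and 21.6, 20.5 and 21.6 in DOURADOAGULHA, so the 2 indica varieties stood at opposite ends and the ratio of the means was 4.69. CIPK6 followed (F = 12.6, adjusted p from limma 1.9e-05), from a mean of 2054 in HUHAN3 to 3856 in DOURADOAGULHA. CIPK12 (F = 6.58, adjusted p from limma 0.0021) ranged from 188 in MILT1444 to 275 in EMATAYIN, and CIPK7 (F = 5.76, 0.0044) from 2286 in NIPPONBARE to 3882 in KHAUMEO. Neither passed when a gene's probe sets were averaged (adjusted p from limma 0.31 for CIPK12 and 0.086 for CIPK7).

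**Figure D4:**
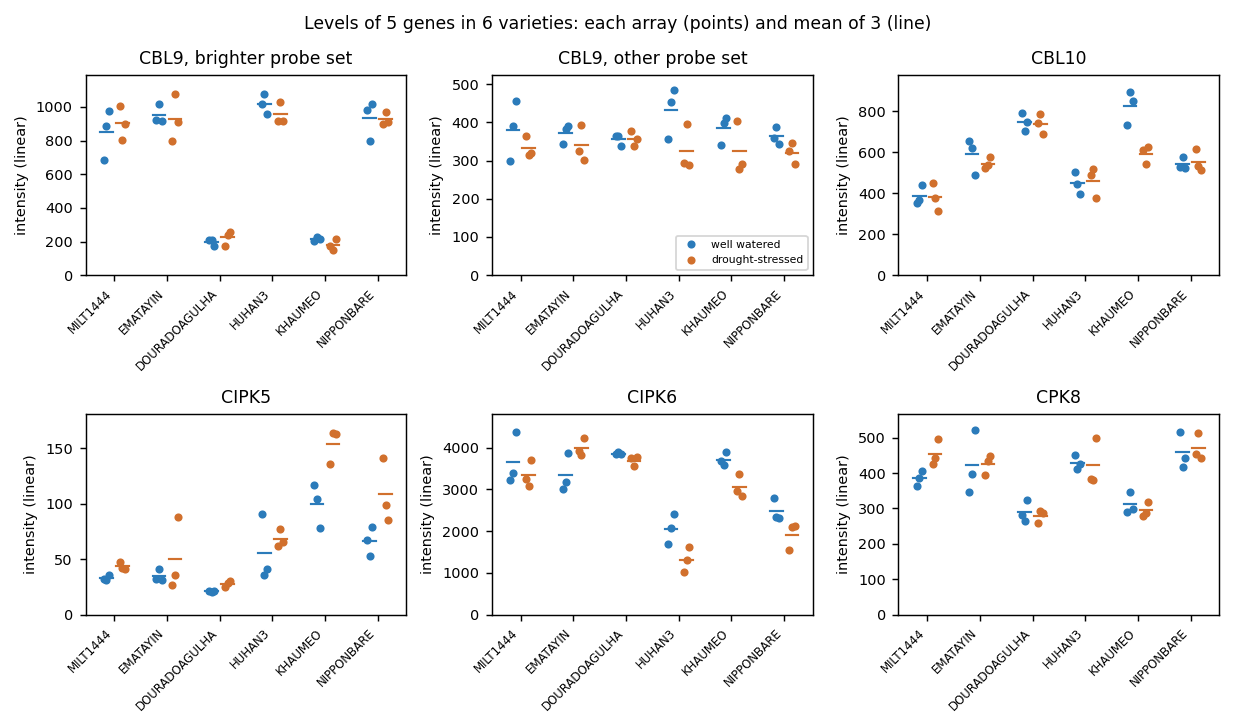
Linear intensity on each array (points; blue well watered, orange drought-stressed) and mean of 3 (line) in 6 varieties for the brighter and the other probe set of CBL9 and for CBL10, CIPK5, CIPK6 and CPK8. The brighter CBL9 probe set reads at most 259 on every DOURADOAGULHA and KHAUMEO array and at least 687 on the others, and the other CBL9 probe set shows no such split.

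In the CPK family the largest F was that of CPK8 (8.95, adjusted p from limma 2.7e-04), with means of 289.5 in DOURADOAGULHA and 459 in NIPPONBARE, and 1.58-fold between them. CPK9 (F = 6.07, adjusted p from limma 0.0033) ranged from 30.1 in MILT1444 to 71.7 in NIPPONBARE, where the arrays read 101, 62.5 and 51.2. CPK5 (F = 5.46, 0.0059) ranged from 1524 in KHAUMEO to 2088 in NIPPONBARE and did not pass with the arrays scaled to ACT1 (0.12). CPK2 was near the bottom of the scale, at 12.2 in NIPPONBARE and 18.3 in KHAUMEO (F = 5.28, adjusted p from limma 0.0070), and its call was lost without the second well watered array of NIPPONBARE (0.070). CPK3, CIPK19, CIPK26 and CBL3 were the steadiest, with the highest variety mean at most 1.10 times the lowest.

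Probe sets of the same gene did not always tell the same story. Of 11 genes with several probe sets, 6 had the same sign of the average change in all of them and 5 did not, namely CIPK10, CIPK12, CIPK31, CPK6 and CPK18. For CIPK10 the probe set used did not differ between varieties (adjusted p from limma 0.75), whereas the other 3 did (adjusted p from limma 1.4e-04 to 0.0011), with ratios of the highest to the lowest well watered mean of 2.88 to 6.74. For CPK13, known in rice from cold, salt and drought, the dimmer probe set fell by 0.53 ± 0.19 (adjusted p from limma 0.026) while the brighter gave -0.14 ± 0.09. Among the members, 7 rest on probe sets that can bind transcripts of other genes, and they are CBL9, CIPK2, CIPK11, CIPK16, CPK5, CPK12 and CPK18.

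Other genes of calcium signalling were set beside the members, from a list of calmodulins, calmodulin-like proteins, pumps, exchangers, channels and targets. Of 46 listed genes 40 were measured, of which 11 were higher and 6 lower in the average at the adjusted p, none by 2-fold, beside 20.6% and 21.5% of the whole array, with a median of -0.01 and a range from -0.58 to 0.84. Among the sensors of this list, the calmodulin-like gene CML16 rose by 0.84 ± 0.24 and CML8 by 0.71 ± 0.10, and CML8 was called at 2-fold in 3 varieties. The main calmodulin genes CAM1, CAM2 and CAM3 fell by 0.11, 0.08 and 0.16, each in 6 of 6 varieties, while CAM61 rose by 0.54 ± 0.08. The falls of CAM1, CAM2 and CAM3 were about as large as that of ACT1 (-0.13, also in 6 of 6 varieties). These genes were not refitted with the arrays scaled to ACT1, which raises every average change by the fall of ACT1. Since CAM1 and CAM2 fell less than ACT1, their average changes would turn positive with it. That of CAM3 would stay below 0 but be much smaller. Of the transport genes, the calcium pump gene ACA5 rose by 0.45 ± 0.04 and the channel gene TPC1 by 0.37 ± 0.07.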

How the data were processed

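Panicle RNA was measured on Affymetrix Rice Genome Arrays. The authors computed the deposited intensity values by RMA in the affy package and used limma, with no versions stated. RMA returns log2 values, but the deposited values are linear, and the step between is not stated. After a log2 transform and removal of 187 control probe sets, limma 3.58.1 in R 4.3.3 modelled the other 57194 by 12 group means, without a filter on dim values. Contrasts were the drought change per variety, its average, tolerant minus sensitive, and F tests of well watered varieties and of the interaction, with Benjamini-Hochberg adjustment within each. The array's annotation gives a single gene for 22436 probe sets, and symbols and synonyms came from RefSeq, assembly ASM3414082v1. Named are members past the 2-fold call (none), the 3 largest rises and falls per family, the 4 largest variety F in CPK and CIPK and 2 in CBL, the 3 largest interaction F, and the 2 largest tolerant minus sensitive differences each way. CPK21, CIPK10, CPK13, CIPK20, CIPK31, CIPK23, CIPK24 and the other members with values were named after their values were seen. Members and lists were chosen with earlier results of these data known. Fits were tested on simulated data. Scripts used Python 3.11.15, pandas 2.3.3, numpy 2.4.6 and scipy 1.17.1, and figures matplotlib 3.10.9. Alternatives are in the closing section. Sequences of genes, promoters and proteins were not used here.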

Additional observations from a re-analysis of the deposited data

Results flagged for a closer look

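In 3 of the 51 genes the arrays of 1 variety all moved up and those of another all moved down. The share of all probe sets with this pattern was not counted, so the count says nothing particular about the members. For CIPK30 the drought arrays lay above the well watered arrays in HUHAN3 (7.66, 7.88 and 6.78 against 11.5, 8.29 and 11.9) and below them in NIPPONBARE (10.3, 11.0 and 9.20 against 8.81, 6.38 and 7.50), and these changes differ by 0.92 on the log2 scale, at intensities near the bottom of the scale. For CPK9 they lay above in EMATAYIN (31.4, 41.3 and 37.8 against 42.0, 53.3 and 42.5) and below in KHAUMEO (59.1, 57.9 and 41.0 against 33.1, 38.9 and 30.3), a difference of 0.94. For CPK12 they lay above in EMATAYIN and below in NIPPONBARE, with changes of 0.23 ± 0.15 and -0.20 ± 0.15 and a difference of 0.43. The differences between these pairs of varieties were not tested by themselves, and limma's F over the 6 varieties did not pass for CIPK30 (adjusted p 0.72), CPK9 (0.71) or CPK12 (0.64).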

How the results depend on the processing

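No gene named by the rule changed sign under an alternative in the comparisons it was named for, and its other comparisons were not checked. Scaling to ACT1 turned the median average change of the CPK genes from -0.09 to 0.04 and that of the CBL genes from -0.03 to 0.10. It also raised the number of members with a positive average change from 22 to 34 of 51. Over the named genes, 2088 results under alternatives stayed on the same side of the threshold with the same direction, 171 lost the call and 5 gained it. The 2088 include results that never passed. They also include refits without an array of another variety, which leave the change in a variety as it was. The 5 gains were all at an unadjusted p.

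Without the fold limit, 9 members were called in at least 1 variety and 27 in the average. At the adjusted p alone per variety, no member passed when each variety was fitted alone. With an unadjusted p 30 members passed in at least 1 variety, and the share of all probe sets under that rule was not counted. Scaling to ACT1 left 5 lower members in the average (CBL6, CIPK2, CIPK14, CPK20 and CPK24) and gave 19 higher, so that 79.2% of the calls were higher, against 51.9% as reported and 42.3% (11 higher and 15 lower) after quantile normalization. CPK23 (-0.10, adjusted p 0.27) and CBL2 (-0.03, 0.64) lost their calls under ACT1, and CBL3 (0.08, 0.074) after quantile normalization. At an unadjusted p, 6 members passed the interaction F and 4 the tolerant minus sensitive contrast. ACT1 itself fell by 0.13 ± 0.03 under drought, in 6 of 6 varieties, and scaling to it raises the average change of every probe set by that amount. The shares of all probe sets called higher or lower under these scalings were not counted, so the members' counts cannot be set beside the array. The causes of the other shifts were not tested.

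Leaving out arrays or replicate numbers gave 0 to 2 members called at 2-fold in a variety (CIPK1 in EMATAYIN and CPK21 in NIPPONBARE, without replicate 3), 0 to 14 members at the adjusted p alone in a variety, 7 to 15 higher and 4 to 14 lower in the average, and 8 to 25 that differed between well watered varieties. The count of 14 came without the third drought-stressed array of HUHAN3, and the lowest values came without replicate 2 of every group. CIPK5, CBL6, CBL2, CBL3, CPK23 and CIPK29 did not pass in the average without replicate 2, which leaves 2 arrays a group, and CBL3 and CIPK29 did not pass without replicate 1 or 3 either, nor CBL2 without replicate 1. The interaction and the tolerant minus sensitive contrast gave 0 in every refit.

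The replicate numbers were not taken to pair the samples, since 4 of 18 pairs of well watered and drought arrays with the same number in a variety correlated above 0.1 (r from -0.30 to 0.20). Arrays of the same number and treatment in different varieties had a median r of 0.08, against -0.03 for different numbers, and of the well watered arrays replicate 3 was the brightest for CBL6 and the dimmest for CPK22 in 6 of 6 varieties, a pattern seen after the values were known. With replicate numbers as a block inside each variety, 8 members passed in a variety at the adjusted p alone and 12 were higher and 13 lower in the average, and with a block shared by all varieties the counts were 13, 14 and 13, with 26 that differed between varieties. The block inside each variety lost the calls of CBL4 in HUHAN3 (adjusted p 0.062), CIPK1 in HUHAN3 (0.074) and KHAUMEO (0.14), CIPK12 in DOURADOAGULHA (0.074) and KHAUMEO (0.064), CPK20 in KHAUMEO (0.12) and CBL3 in the average (0.056). The within-variety block gives no F between varieties.

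Dim members such as CIPK30, CPK2 and CPK6 lie far below the median probe set, and detection calls were not used here. Whether a change is less well measured there was not tested. The SEs of their average changes were 0.088, 0.055 and 0.133, beside 0.035 for the bright CBL3 and 0.148 for the bright CBL6.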
